A study of Mus musculus with 74 samples.

Results

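Mouse embryonic fibroblasts carrying a Sox2-GFP reporter were driven toward induced neural stem cells by 2 cocktails that share an engineered Sox17, and the libraries compared here are those taken after doxycycline had been withdrawn. K_FNV is the 2-factor cocktail, Klf4 with eSox17FNV. BKM_FNV is the 4-factor cocktail, Brn4 (the gene Pou3f4), Klf4, c-Myc and eSox17FNV. All libraries of these 2 cocktails at days 24 and 30 in the table of neural stem cell medium samples were taken, with 2 libraries per cocktail and day, so that 4 K_FNV libraries were set against 4 BKM_FNV libraries. These are 8 of the 74 samples of the series and 8 of the 54 libraries of that table.

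In every group the fibroblasts carried the M2rtTA transactivator and doxycycline-inducible lentiviral factors. All groups were kept in neural stem cell medium with N2, B27, 10 ng/mL bFGF and 10 ng/mL EGF from day 0 on, and received 1 µg/mL doxycycline for 18 days. Days 24 and 30 thus lie 6 and 12 days after withdrawal. RNA came from whole cultures labelled as reprogramming intermediates and no sort is named, so a shift in the mix of cells and a shift within cells cannot be told apart, and fewer cells of a type cannot be told apart from less RNA per cell. The labels do not say whether the replicates were separate cultures. The p-values measure the spread between replicates pooled over all 28 groups of the fit, not that of the compared libraries alone, and it may be technical.

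An inducible cocktail is switched off by withdrawing doxycycline, after which a cell keeps a new identity only if its own genes sustain it. Neural stem cells are held by SoxB1 factors such as Sox2 with POU partners such as Brn2 and Brn4, while Klf4 and Sox17 are also known from pluripotent, epithelial, endodermal and endothelial cells. Fibroblasts under proliferative or oncogenic stress can instead stop dividing, with raised CDK inhibitors and secretion of proteases, cytokines and chemokines, the senescence secretory program. Type I interferon signalling is a separate program, in which receptors, STAT proteins and IRF factors turn on a large set of antiviral effectors.

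Values are the deposited normalized tag counts of each gene, which have the same median (166) and the same top value (78139) in each of the 8 libraries, so that sequencing depth cannot be read from them, and pairs of values are given replicate 1 first. Differences are K_FNV minus BKM_FNV on the log2(value + 2) scale with the standard error of the limma fit, which understates the difference of low genes. A gene was called when its Benjamini-Hochberg adjusted p was below 0.05 and its absolute difference at least 1, and "higher" or "lower" below refers to K_FNV. The 8 libraries summed to between 17706082 and 17709750, between 9.81% and 12.1% of genes were listed at 0, and replicate correlations lay between 0.951 and 0.961.

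Some features of the libraries touch the results. Interferon genes differed between the replicates of K_FNV: at both days 29 of the 38 tested members of the interferon list were at least 2-fold higher in replicate 1 than in replicate 2, with a median gap of 2.12 at day 24 and 1.89 at day 30 on the log2 scale, against 0.03 and 0.07 in BKM_FNV. Outside its own group, each of the 4 K_FNV libraries was closest to the K_FNV library of the same replicate number at the other day. The averaged p-values treat the 4 libraries as independent, which may make them too small for interferon genes and others with a lasting replicate gap. Replicate 1 of K_FNV was also the higher one in 23 of 23 mitosis and 22 of 23 replication genes at each day. Xist, the RNA that silences an X chromosome, lay between 93 and 234 in the 32 libraries taken on doxycycline and between 6160 and 78139 in the 13 taken after withdrawal that were fitted, over all cocktails of the table. This gap of 4.71 on the log2 scale was the largest of all genes, while the Y-linked genes Ddx3y, Eif2s3y, Kdm5d and Uty were present in both periods. Within the compared libraries Xist stood at the top value of 78139 in all 4 BKM_FNV libraries and at 7157, 10066, 6160 and 21716 in K_FNV. Since 10 genes share the top value in each library, it is a ceiling, and the fitted difference of -2.98 ± 0.68 may be understated. It was singled out after its values were seen, its part in the results was not tested, and a difference in source or batch between the periods cannot be told apart from the period. Separately, 1032 of the 20760 tested genes were listed either at 0 or at 50 and above and never between, so that a single absent estimate gives a large difference. Of these, 242 were called in the averaged comparison.

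The delivered factors followed the labels. Pou3f4, delivered only in BKM_FNV, was 237 and 211 at day 24 and 545 and 474 at day 30 in BKM_FNV, against 32 and 20, then 19 and 14, in K_FNV. The K_FNV libraries were below all BKM_FNV libraries at both days (-3.92 ± 0.17, adjusted p = 7.61e-17). On the last day of doxycycline, day 18, the same gene had been at 2702 and 3253 in BKM_FNV and at 14 and 16 in K_FNV. Myc, the other factor unique to BKM_FNV, had been at 3252 and 3558 in BKM_FNV at day 18. After withdrawal it stood at 408, 391, 582 and 569 in BKM_FNV and 734, 612, 601 and 493 in K_FNV, groups that overlapped at day 30, and it was not called (0.33 ± 0.13).

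The factors shared by both cocktails were higher in K_FNV after withdrawal. Klf4 was 621 and 622, then 36 and 38, in BKM_FNV and 2342 and 2397, then 744 and 605, in K_FNV, with no overlap at either day (3.02 ± 0.10, adjusted p = 1.92e-19). Sox17 was 167 and 144, then 36 and 30, in BKM_FNV and 3716 and 7284, then 174 and 167, in K_FNV (3.68 ± 0.16, adjusted p = 3.41e-17). Both genes were already higher in K_FNV at day 18, Sox17 at 13468 and 10769 against 4018 and 5876, and Klf4 at 6754 and 5008 against 2863 and 3693. At day 8 both had been lower in K_FNV, Sox17 at 18428 and 12929 against 29410 and 21719, and Klf4 at 11080 and 9479 against 23871 and 23871, and the mean difference over days 4 to 18 was 0.21 for Sox17 and -0.18 for Klf4. The difference in Sox17 shrank from day 24 to day 30 by an interaction of -2.74 ± 0.31 (adjusted p = 1.59e-07). Transcripts from the vector and from the endogenous gene are not separated in these values. Sox7, a relative of Sox17 in the SoxF family, was 66 and 68, then 22 and 16, in BKM_FNV and 694 and 467, then 246 and 403, in K_FNV (3.49 ± 0.48, adjusted p = 3.73e-07).

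**Figure D1:**
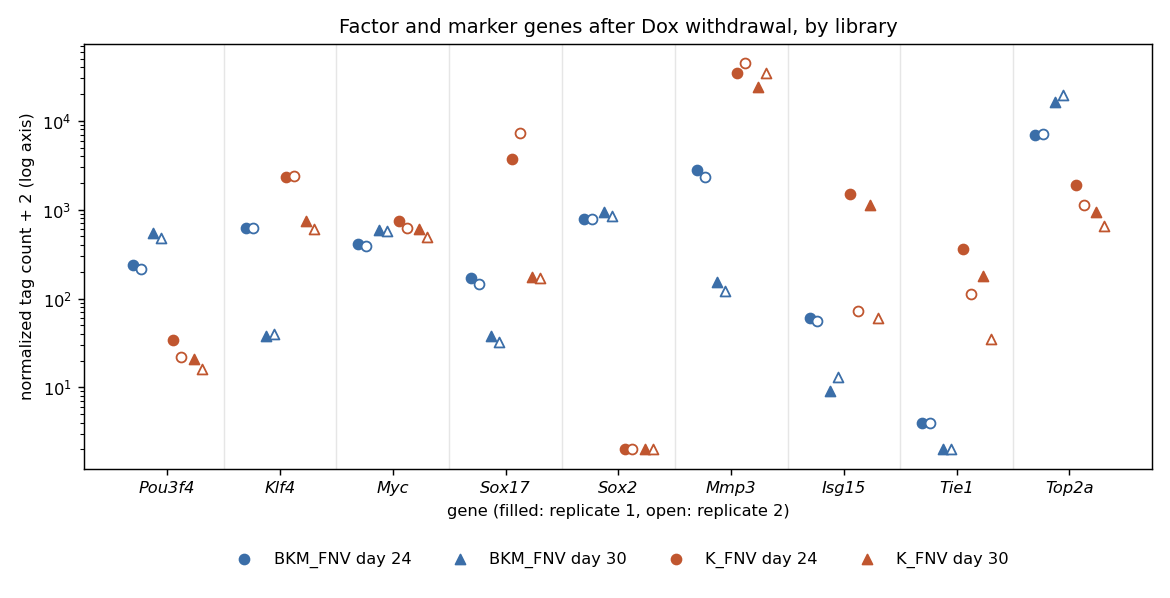
Values of the delivered factors, Sox2 and the 4 marker genes by library, as the deposited value + 2 on a log axis, with BKM_FNV in blue and K_FNV in orange, circles for day 24 and triangles for day 30, filled for replicate 1 and open for replicate 2. Klf4, Sox17 and Mmp3 were higher in all K_FNV libraries of a day than in both BKM_FNV libraries of that day, Pou3f4, Sox2 and Top2a were lower, and Isg15 and Tie1 were spread between the K_FNV replicates.

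The 4 genes that mark the comparison gave large differences of unequal firmness. Mmp3, a secreted protease of the extracellular matrix, was 2784 and 2342, then 153 and 120, in BKM_FNV and 34130 and 44404, then 23871 and 34130, in K_FNV. Its difference was 5.81 ± 0.17 (adjusted p = 1.97e-20), and it widened by 3.77 ± 0.35 from day 24 to day 30 (adjusted p = 3.71e-09). Top2a, the DNA topoisomerase of dividing cells, was 6993 and 7157, then 16288 and 19766, in BKM_FNV and 1911 and 1122, then 932 and 651, in K_FNV (-3.40 ± 0.14, adjusted p = 2.2e-17). Its interaction between days was -2.25 ± 0.28 (adjusted p = 7.3e-07).

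Isg15 and Tie1 varied more within K_FNV. Isg15, a ubiquitin-like interferon effector, was 58 and 54, then 7 and 11, in BKM_FNV and 1510 and 71, then 1132 and 58, in K_FNV, so that replicate 2 alone stood just above BKM_FNV at day 24 and further above it at day 30. It was called in the average (3.56 ± 0.73, adjusted p = 0.000146) and at day 30 (4.59 ± 1.03, adjusted p = 0.00046), and not at day 24 (2.52 ± 1.03, adjusted p = 0.0508). Without both K_FNV replicate 1 libraries the averaged difference was 1.40 and the day 30 difference 2.47. This fit leaves 1 library in each K_FNV group, so the K_FNV replicate gap drops out of its error and only sizes are given. Tie1, a receptor of endothelial cells, was 2 and 2 in BKM_FNV at day 24 and 357 and 109 in K_FNV (5.64 ± 0.81, adjusted p = 2.32e-06). At day 30 it was listed at 0 in both BKM_FNV libraries and at 176 and 33 in K_FNV.

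Across the table, 4504 genes were called in the averaged comparison, of which 2260 (10.9% of the tested genes) were higher and 2244 (10.8%) lower in K_FNV. Without a test, 4578 genes (22.1%) were higher in both K_FNV libraries than in both BKM_FNV libraries at both days, and 4355 (21.0%) were lower in the same way. At day 24, 1595 genes (7.68%) were called higher and 1792 (8.63%) lower. At day 30, 2720 (13.1%) were higher and 2562 (12.3%) lower. The median difference of all tested genes was 0.08 in the average, 0.07 at day 24 and 0 at day 30. The library of another cocktail that was left out for a replicate correlation of 0.0578 matters for these counts, because it widens the shared error: with it kept, the calls were 3176 in the average, 1614 at day 24 and 3066 at day 30. In the list counts below, the same setting moved the averaged calls by more than 1.5-fold in 6 lists, to 4 fibroblast and 3 complement genes higher, 11 replication, 3 forebrain and midbrain and 3 glycolysis genes lower, and 1 ERK feedback gene higher. It also ended the averaged calls of Ifnar2, Ifngr2, Mmp13 and Nes and the day 24 call of Ltbp2.

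Interferon genes were higher in K_FNV, with the 2 replicates far apart. Of the 38 tested members of the list, 31 were called higher and 0 lower, with a median of 2.29, and 31 were non-overlapping at both days. By role these were 22 of 23 effectors, 4 of 5 sensors, 3 of 5 signalling factors, 2 of 4 receptors and 0 of 1 ligand. Ifit1, an effector that binds foreign RNA ends, was 217 and 199, then 84 and 104, in BKM_FNV and 2740 and 294, then 2407 and 306, in K_FNV (2.64 ± 0.50, adjusted p = 5.49e-05). Irf7, the factor that amplifies the response, was 24 and 22, then 3 and 4, in BKM_FNV and 1509 and 39, then 811 and 34, in K_FNV (4.14 ± 0.79, adjusted p = 6.13e-05). In both genes all K_FNV libraries lay above the BKM_FNV libraries of the day, replicate 2 only narrowly at day 24. The list summed to 14501 to 14994, then 7835 to 8072, in BKM_FNV and 22850 to 56649, then 23655 to 53105, in K_FNV. Starting fibroblasts had 30800 to 31450, above all BKM_FNV libraries and between the K_FNV libraries of each day.

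Of the 4 receptor chains 2 were called higher, and these did not share the replicate gap. Ifnar1 (0.43) and Ifngr1 (0.44) were not called. Ifnar2, a chain of the type I receptor, was 720 and 551, then 499 and 598, in BKM_FNV and 1280 and 1199, then 1360 and 1389, in K_FNV (1.15 ± 0.11, adjusted p = 8.99e-10). Ifngr2, a chain of the type II receptor, was 1048 and 1013, then 579 and 550, against 2189 and 1923, then 2022 and 2208 (1.45 ± 0.09, adjusted p = 1.65e-13). Ifnb1, the only ligand tested, was listed at 0 in 7 of the 8 libraries and at 65 in K_FNV day 24 replicate 1. Its call as higher at day 24 (2.53) rests on that library alone.

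The level of the whole effector group shows the same split. The median value over the 23 effectors was 113 and 123 at day 24 and 50 and 39 at day 30 in BKM_FNV, and 819 and 179, then 530 and 168, in K_FNV. K_FNV replicate 2 alone was above both BKM_FNV libraries in 31 of 38 interferon genes at day 24 and in 35 of 38 at day 30. Without both K_FNV replicate 1 libraries the median difference of the 38 was 1.07, and without both replicate 2 libraries 3.34. A fit on only the compared groups called 20, with the calls of Isg15 (adjusted p = 0.0585), Ifit1 (0.0523) and Irf7 (0.0525) among those lost. On doxycycline the effector median was higher in BKM_FNV at day 8 (386 and 447 against 182 and 114 in K_FNV) and at day 12 (302 and 413 against 193 and 137). The cocktails overlapped at day 4 (100 and 116 against 99 and 196) and at day 18 (224 and 246 against 235 and 237).

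**Figure D2:**
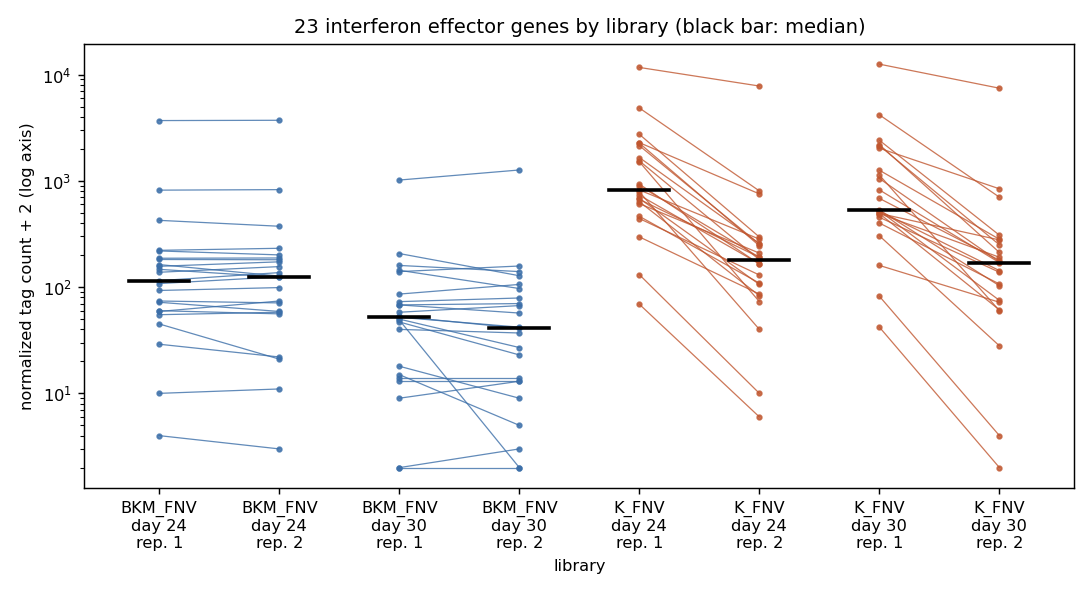
Values of the 23 interferon effectors in the 8 libraries (log axis), each line joining replicates 1 and 2 of a group for a gene and the black bar giving the median of the library. In K_FNV nearly all lines descend from replicate 1 to replicate 2, with medians of 819 and 179 at day 24 and 530 and 168 at day 30, and in BKM_FNV the lines are flat.

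Promoters of 2 effectors are shown because the group moved together. The sequences are the 120 bases upstream of the RefSeq start site in GRCm38.p6, read in the direction of transcription, for Isg15 at chr4:156200819-156200938 (minus strand) and Ifit1 at chr19:34640769-34640888 (plus strand), and capitals mark the letters GAAANNGAA on either strand, a form of the interferon-stimulated response element (ISRE).
Isg15: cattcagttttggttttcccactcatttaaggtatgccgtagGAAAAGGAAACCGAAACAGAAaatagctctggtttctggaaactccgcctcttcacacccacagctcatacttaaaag
Ifit1: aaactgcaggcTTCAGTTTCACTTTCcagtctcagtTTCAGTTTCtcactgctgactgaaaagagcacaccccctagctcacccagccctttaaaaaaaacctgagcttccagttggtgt
Each of the 2 stretches holds 3 matches. In windows from 250 bases before to 50 after the start site, 13 of 25 windows of interferon genes called higher held the motif (52.0%), against 8.56% of 32851 windows of 27025 genes. A match describes the letters only.

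The class I antigen presentation genes, many of them interferon targets, were higher in 12 of 16 and lower in 0 (median 2.00). B2m, the light chain, was 10768 and 10066, then 1861 and 2189, in BKM_FNV and 78139 and 34127, then 78139 and 29407, in K_FNV, where the first value of each pair is the ceiling of the library, so that the difference may be understated (3.44 ± 0.23, adjusted p = 4.08e-13). H2-D1, a heavy chain, was 2208 and 2248, then 170 and 168, against 8954 and 3895, then 7282 and 3502 (3.15 ± 0.19, adjusted p = 3.69e-14). Psmb8, a subunit of the immunoproteasome, was 23 and 26, then 1 and 1, against 452 and 45, then 285 and 34 (3.77 ± 0.46, adjusted p = 6.32e-08). K_FNV was above BKM_FNV in all libraries of these genes. Replicate 1 of K_FNV was the higher one in 15 of 16 members at day 24 and 16 of 16 at day 30. Without those libraries the median difference was 1.48. Calr, the chaperone of peptide loading, was 19770 in all 4 libraries of day 24 and was not called in the average. At day 30 all 5 peptide loading genes, Calr among them, were called higher. The list summed to 38684 to 39515, then 13872 to 14164, in BKM_FNV and 66937 to 125854, then 61091 to 124421, in K_FNV. Starting fibroblasts had 54426 to 57682, above all BKM_FNV and below all K_FNV libraries.

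The matrix proteases were higher in 8 of 19 members and lower in 1, with a median of 0.97. The calls came from the metalloproteinases, 6 of 10, while 0 of 5 ADAMTS proteases were called and the inhibitors gave 2 higher and 1 lower of 4. Mmp9, a gelatinase, was 1777 and 1887, then 217 and 189, in BKM_FNV and 44402 and 23868, then 3392 and 2308, in K_FNV (3.96 ± 0.31, adjusted p = 1.11e-11). Mmp10, a stromelysin like Mmp3, was 200 and 200, then 20 and 44, against 1023 and 1142, then 345 and 441 (3.02 ± 0.20, adjusted p = 4.18e-13). Both were above BKM_FNV in all K_FNV libraries of each day, and both cocktails had lower values at day 30 than at day 24. Mmp13, a collagenase, was 574 and 582, then 94 and 133, against 1880 and 1600, then 647 and 891 (2.16 ± 0.58, adjusted p = 0.00239). Timp1, an inhibitor of these enzymes, was 1997 and 1837, then 135 and 111, against 5289 and 5007, then 4240 and 4093 (3.25 ± 0.34, adjusted p = 3.01e-09). Fosl1, a component of the AP-1 factor that binds promoters of this family, was 79 and 62, then 1 and 0, in BKM_FNV and 565 and 386, then 428 and 386, in K_FNV (5.04 ± 0.25, adjusted p = 6.98e-16). In its list of AP-1 and immediate early genes 7 of 14 were higher and 1 lower. Fos and Jun, the founding members, were not called: Fos was 7445 and 7997, then 1154 and 1037, against 6509 and 7643, then 1725 and 2588, and Jun 6370 and 6370, then 2654 and 2516, against 6160 and 6067, then 3693 and 3851.

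The promoters of 3 metalloproteinases are shown because these genes, neighbours on chromosome 9, were higher together. They are the 120 bases upstream of the RefSeq start site in GRCm38.p6 on the plus strand, Mmp3 at chr9:7445702-7445821, Mmp10 at chr9:7502222-7502341 and Mmp13 at chr9:7272394-7272513, and capitals mark the AP-1 letters TGANTCA on either strand.
Mmp3: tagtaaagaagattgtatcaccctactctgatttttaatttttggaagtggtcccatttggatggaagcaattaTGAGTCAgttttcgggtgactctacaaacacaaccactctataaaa
Mmp10: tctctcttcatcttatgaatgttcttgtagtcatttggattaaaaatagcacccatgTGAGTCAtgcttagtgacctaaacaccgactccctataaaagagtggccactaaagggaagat
Mmp13: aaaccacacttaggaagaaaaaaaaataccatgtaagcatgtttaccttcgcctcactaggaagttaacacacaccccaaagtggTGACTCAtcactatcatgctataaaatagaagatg
Each holds 1 match, whose first base lies at -46, -63 and -35 from the start site. Of the windows of proteases and inhibitors called higher, 3 of 7 held the motif (42.9%), those of the 3 genes shown. Among genes called higher it was in 5 of 17 chemokine and cytokine windows (29.4%) and 7 of 25 interferon windows (28.0%). It was in 0 of 11 windows of class I presentation genes called higher, and in 7.81% of all windows. A match describes the letters only.

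Chemokines and cytokines were higher in 17 of 28 members and lower in 1 (median 1.88), most of them at day 30. At day 24, 6 were called higher and 1 lower, and at day 30, 19 and 0, with 12 interactions between the days called upward. Without the genes listed only at 0 or at 50 and above, 11 were higher in the average. Ccl2, which recruits monocytes, was 9215 and 8954, then 344 and 315, in BKM_FNV and 34127 and 26500, then 29407 and 34127, in K_FNV. It was not called at day 24 (1.73 ± 0.89, adjusted p = 0.122) and was higher by 6.58 ± 0.89 at day 30 (adjusted p = 3.49e-07), an interaction of 4.85 ± 1.25 (adjusted p = 0.0044). Lif, a cytokine that also supports pluripotent cells, was 2955 and 2902, then 13 and 15, against 4532 and 3206, then 1539 and 1777. Its difference went from 0.38 ± 0.32 at day 24, not called, to 6.70 ± 0.32 at day 30 (interaction 6.32 ± 0.45, adjusted p = 1.87e-11). In both genes the BKM_FNV values at day 30 were a small fraction of those at day 24, while in K_FNV Ccl2 was at a like level on both days and Lif was lower at day 30. Il1rn, the natural antagonist of interleukin 1, was 310 and 236, then 36 and 77, against 1182 and 912, then 920 and 1065 (3.06 ± 0.18, adjusted p = 2.41e-14). The member called lower was Ccl11, which recruits eosinophils, at 1725 and 1626, then 1132 and 1111, against 452 and 507, then 1191 and 725. Complement genes were higher in 6 of 11 and lower in 0, among them C3, the central component, at 4446 and 4631, then 524 and 548, against 11080 and 9809, then 5876 and 18428. Macrophage and blood markers gave 2 of 12 higher, Cd14 and Lyz2, beside 10.9% of all tested genes, and C1qa was listed at 0 in all 8 libraries. Their summed level was 140 to 284 and 43 to 55 in BKM_FNV and 341 to 555 and 252 to 293 in K_FNV, against 3608 to 3930 in the starting fibroblasts.

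Endothelial genes were higher in 12 of 20 members and lower in 3 (median 1.61), with 5 of 6 receptors higher. Cdh5, the cadherin of endothelial junctions, was 283 and 267, then 83 and 51, in BKM_FNV and 2653 and 2386, then 916 and 629, in K_FNV (3.34 ± 0.39, adjusted p = 2.5e-08). Eng, a co-receptor for TGF-beta ligands, was 88 and 82, then 45 and 40, against 784 and 725, then 1154 and 656 (3.71 ± 0.26, adjusted p = 1.39e-12). Flt4, a receptor for VEGF-C, was 46 and 46, then 11 and 17, against 500 and 398, then 236 and 282 (3.64 ± 0.17, adjusted p = 2.98e-16). For all 3 the groups did not overlap at either day. Tek, the angiopoietin receptor, was 149 and 156, then 73 and 80, against 932 and 1026, then 163 and 245 (2.01 ± 0.14, adjusted p = 7.6e-13). Emcn, a sialomucin of vessels, went the other way, at 566 and 644, then 2071 and 2157, against 178 and 253, then 580 and 344 (-1.87 ± 0.18, adjusted p = 1.07e-09). Pecam1, a defining adhesion molecule of endothelium, was between 41 and 107 in all 8 libraries and was not called. The summed level of the list was 8342 to 9292 and 4166 to 5007 in K_FNV, 2404 to 2696 and 3070 to 3176 in BKM_FNV, and 4604 to 5005 in the starting fibroblasts, so that K_FNV at day 30 was near the fibroblast level.

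**Figure D3:**
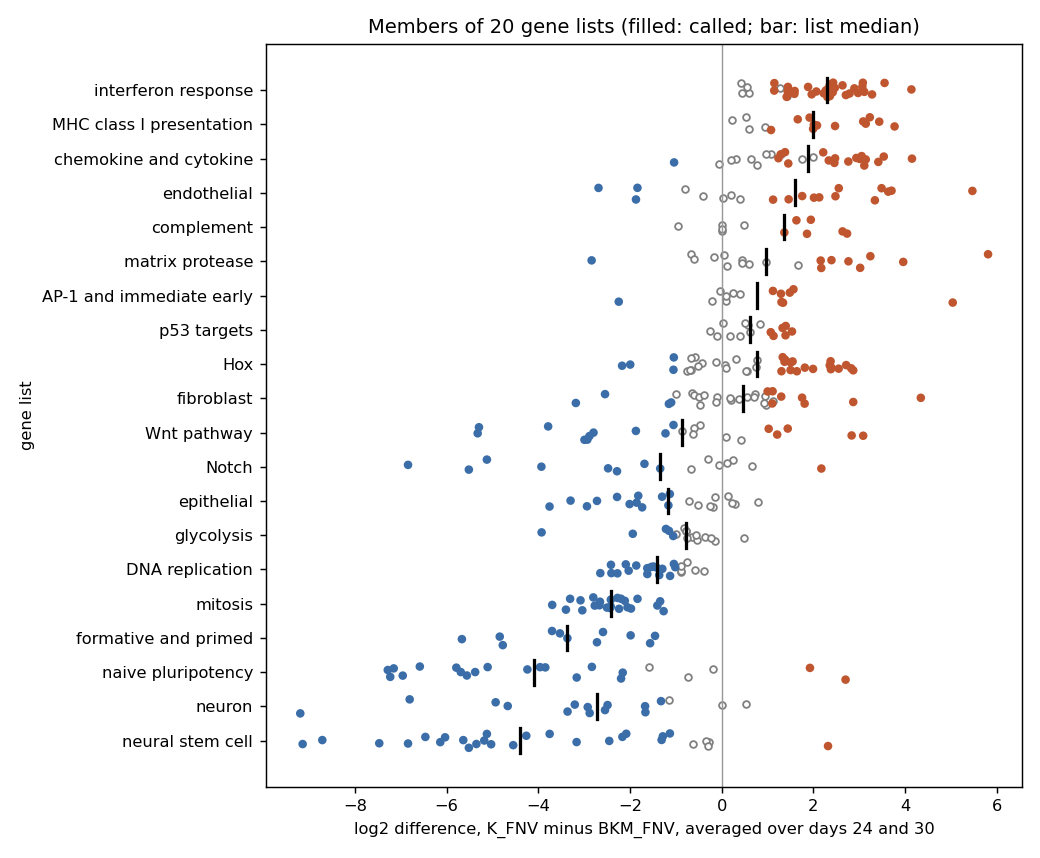
Averaged difference (K_FNV minus BKM_FNV, log2 scale) of each tested member of 20 gene lists, filled and orange for genes called higher, filled and blue for genes called lower, open for the rest, with a bar at the median of the list. Interferon and class I presentation genes lie to the right, with medians of 2.29 and 2.00, and mitosis, neural stem cell and naive pluripotency genes to the left, with medians of -2.42, -4.40 and -4.10.

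Genes of cell division were lower in K_FNV. All 23 mitosis genes were called lower (median -2.42), 22 of them already at day 24, and all 23 were non-overlapping at both days. Cdc20, which activates the anaphase-promoting complex, was 1605 and 1600, then 1548 and 1642, in BKM_FNV and 339 and 182, then 177 and 126, in K_FNV (-3.04 ± 0.19, adjusted p = 1.02e-13). Ube2c, a ubiquitin-conjugating enzyme of that complex, was 1327 and 1324, then 1911 and 1656, against 323 and 254, then 134 and 95 (-3.08 ± 0.19, adjusted p = 9.57e-14). Plk1, a mitotic kinase, was 1154 and 1145, then 1421 and 1490, against 170 and 88, then 102 and 60 (-3.70 ± 0.25, adjusted p = 4.35e-13). All K_FNV libraries were below all BKM_FNV libraries in these genes, and replicate 1 was above replicate 2 in 23 of 23 mitosis genes at both days. Leaving out both K_FNV replicate 1 libraries gave a median of -2.64.

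Replication genes were lower in 17 of 23 and higher in 0 (median -1.42), and all 23 were non-overlapping at both days. Mcm5, a subunit of the replicative helicase, was 1880 and 1832, then 1510 and 1377, in BKM_FNV and 509 and 218, then 274 and 149, in K_FNV (-2.65 ± 0.20, adjusted p = 5.82e-12). Pcna, the sliding clamp, was 5532 and 5874, then 4532 and 4532, against 3143 and 2222, then 1556 and 1408. Uhrf1, which recruits the maintenance DNA methyltransferase, was 2505 and 2505, then 2878 and 2701, against 622 and 256, then 363 and 193 (-3.02 ± 0.22, adjusted p = 1.93e-12). Hmgb2, a chromatin protein of dividing cells, was 3559 and 3415, then 3693 and 3896, against 664 and 455, then 286 and 158 (-3.40 ± 0.18, adjusted p = 4.47e-15). In the chromatin maintenance list, to which both belong, 8 of 12 were lower and 1 higher.

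Promoters of Cdc20 at chr4:118437344-118437463 (minus strand) and Ube2c at chr2:164769809-164769928 (plus strand) are shown because mitosis genes moved together. They cover the 120 bases upstream of the RefSeq start site in GRCm38.p6, and capitals mark TTTGAA on either strand, the letters of the cell cycle genes homology region (CHR).
Cdc20: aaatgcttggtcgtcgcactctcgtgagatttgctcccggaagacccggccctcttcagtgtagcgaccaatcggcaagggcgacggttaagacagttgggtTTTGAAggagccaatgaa
Ube2c: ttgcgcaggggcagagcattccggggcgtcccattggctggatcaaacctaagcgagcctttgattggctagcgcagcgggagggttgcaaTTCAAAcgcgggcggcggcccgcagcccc
Of the windows of mitosis genes called lower, 13 of 18 held TTTGAA (72.2%) and 15 of 18 CCAAT (83.3%), against 17.9% and 37.4% of all windows. Replication genes called lower held TTTGAA in 4 of 18 windows (22.2%), near the share of all windows, and CCAAT in 13 of 18 (72.2%). CCAAT was also in 9 of 11 windows of class I presentation genes called higher (81.8%).

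Inhibitors of the cell cycle moved in both directions, with 2 of 4 INK4 genes higher and 0 lower, and 1 of 3 CIP/KIP genes higher and 2 lower. Cdkn2a, which encodes p16 and p19Arf, was 2849 and 2601, then 410 and 467, in BKM_FNV and 5781 and 4852, then 5165 and 5290, in K_FNV (2.27 ± 0.10, adjusted p = 3.55e-17). Cdkn2b, its neighbour encoding p15, was 838 and 782, then 137 and 176, against 2223 and 1942, then 2099 and 2578 (2.62 ± 0.10, adjusted p = 1.25e-18). Cdkn1a, which encodes p21, was 8132 and 8384, then 2463 and 2423, against 12545 and 11685, then 12147 and 11078 (1.40 ± 0.09, adjusted p = 1.48e-13). These 3 genes did not overlap at either day, and their K_FNV levels were alike at both days. Ccnd1, a D cyclin, was higher too, at 8533 and 8533, then 2625 and 2143, against 10768 and 11685, then 12147 and 19766 (1.55 ± 0.16, adjusted p = 2.4e-09). In the list of CDK inhibitors and D cyclins 4 of 10 were higher and 2 lower, one of the latter being Cdkn1c, which encodes p57, at 3762 and 4018, then 12547 and 15011, against 1206 and 398, then 1454 and 410.

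Targets of p53 were higher in 6 of 15 and lower in 0, with no call at day 24 and 9 at day 30. Mdm2, the ubiquitin ligase of p53, was 7157 and 6618, then 1605 and 1589, in BKM_FNV and 9215 and 8384, then 10520 and 10520, in K_FNV. It differed by 0.35 ± 0.09 at day 24, not called, and by 2.72 ± 0.09 at day 30 (interaction 2.37 ± 0.12, adjusted p = 4.21e-14). Trp53 itself was 2673 and 2635, then 1570 and 1426, against 2013 and 2022, then 2173 and 1960. Of the senescence secretory list 10 of 15 were higher and 1 lower (median 2.16). Several members also belong to the lists above, among them Mmp3, Ccl2, Timp1, Cdkn2a and Cdkn1a, and 5 were higher without the genes listed only at 0 or at 50 and above. Igfbp7, a secreted binder of insulin-like growth factors, was 2308 and 2151, then 667 and 679, against 8000 and 8534, then 8385 and 7284 (2.71 ± 0.15, adjusted p = 4.59e-15). The member called lower was Lmnb1, lamin B1, whose loss is a mark of senescent cells and whose level is also lower in cells that do not divide, at 3596 and 3471, then 4446 and 4358, against 527 and 256, then 379 and 205 (-3.61 ± 0.21, adjusted p = 2.75e-14).

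Neural stem cell genes were lower in 23 of 28 members and higher in 1, with a median of -4.40. Sox2, the SoxB1 factor whose reporter the fibroblasts carried, was 790 and 789, then 930 and 845, in BKM_FNV and listed at 0 in all 4 K_FNV libraries, and its relative Sox3 was 919 and 920, then 1542 and 1237, against 0 in all 4. Msi1, an RNA-binding protein of neural progenitors, was 1247 and 1217, then 2833 and 2609, against 56 and 36, then 36 and 20 (-5.64 ± 0.35, adjusted p = 7.18e-14). Nes, the intermediate filament nestin, was 5165 and 5241, then 6162 and 5961, against 2052 and 2143, then 2180 and 2955 (-1.28 ± 0.15, adjusted p = 1.76e-08). Oligodendrocyte lineage factors had higher values in BKM_FNV at day 30 than at day 24. Olig1 was 28 and 27, then 686 and 656, and Olig2 14 and 13, then 157 and 123, and both were listed at 0 in K_FNV. Ncan, the proteoglycan neurocan, was 74 and 74, then 2491 and 2463, against 1, 0, 0 and 1. The member called higher was Cspg4 (NG2), a proteoglycan also found on pericytes and other mesenchymal cells, at 212 and 253, then 151 and 129, against 1221 and 1500, then 604 and 612 (2.32 ± 0.12, adjusted p = 2.51e-15). Egfr, the receptor for the EGF of the medium, was not called, at 2203 and 2463, then 2783 and 2545, against 1807 and 1632, then 2505 and 2386 (-0.28 ± 0.11).

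The summed level of the neural stem cell list was 22523 to 22663 at day 24 and 47106 to 49621 at day 30 in BKM_FNV, and 9768 to 10700, then 10206 to 11651, in K_FNV. Starting fibroblasts had 13046 to 14019 and neural stem cells 305564 to 311097, so that K_FNV was below the fibroblast level in all 4 libraries and BKM_FNV was far below that of neural stem cells. Neuron genes were lower in 13 of 16 and higher in 0 (median -2.71). Neurod4, a proneural factor, was 1120 and 1182, then 1180 and 1192, in BKM_FNV and listed at 0 in K_FNV, and Dcx, a microtubule protein of migrating neurons, was 1160 and 1160, then 4809 and 4240, against 331 and 254, then 146 and 194. Astrocyte genes were higher in 1 and lower in 3 of 10, and oligodendrocyte genes were higher in 1 and lower in 1 of 6. The shares over all tested genes were 10.9% higher and 10.8% lower. Among forebrain and midbrain factors, 2 of 10 were higher and 5 lower. One of the genes called higher was Dlx2, a ventral forebrain factor, at 11 and 9, then 20 and 17, against 199 and 242, then 168 and 140 (3.57 ± 0.27, adjusted p = 4e-12).

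Pluripotency genes were lower as well. Of the 22 naive pluripotency genes 17 were lower and 2 higher (median -4.10), and all 11 tested formative and primed genes were lower (median -3.36). By day, 10 of the 11 were lower at day 24, and 7 were lower and 1 higher at day 30, with 8 interactions called upward and 1 downward. Pou5f1, encoding Oct4, was 1621 and 1683 at day 24 and 29 and 22 at day 30 in BKM_FNV, and 0, 1, 0 and 0 in K_FNV. Nanog was 515 and 469, then 106 and 109, against 27 and 18, then 46 and 39 (-4.36 ± 0.54 at day 24, adjusted p = 2.11e-07). Dnmt3b, a de novo DNA methyltransferase, was 1075 and 1064, then 82 and 63, against 20 and 21, then 24 and 25. The difference was -5.57 ± 0.22 at day 24 and -1.48 ± 0.22 at day 30 (interaction 4.09 ± 0.32, adjusted p = 1.19e-10). The 2 genes called higher were Tbx3, at 86 and 102, then 174 and 202, against 1349 and 990, then 696 and 632, and Klf2, at 546 and 540, then 15 and 12, against 396 and 307, then 656 and 181, and the libraries of Klf2 at day 24 were higher in BKM_FNV.

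Epithelial genes were lower in 12 of 21 and higher in 0 (median -1.16) in the average, and the days differed. At day 24, 0 were higher and 16 lower, and at day 30, 4 were higher and 3 lower, with 13 interactions upward and 1 downward. Krt8, a keratin of simple epithelia, was 5007 and 5007, then 20 and 17, in BKM_FNV and 69 and 654, then 13 and 95, in K_FNV. It was lower by -4.54 ± 0.60 at day 24 (adjusted p = 6.35e-07), and its interaction was 5.44 ± 0.85 (adjusted p = 1.83e-05). Epcam, an epithelial adhesion molecule, was 502 and 511, then 8 and 8, against 12 and 44, then 6 and 7 (-4.32 ± 0.38 at day 24, adjusted p = 5.86e-10). At day 30 both genes were at 95 or below in both cocktails. Keratinocyte markers were higher in 6 and lower in 3 of 12, and endoderm markers higher in 3 and lower in 3 of 9. Trophoblast markers were higher in 1 and lower in 2 of 6. Skeletal muscle markers were lower in 4 of 6 and neural crest and Schwann cell markers in 2 of 7, with 0 higher in either list. Of all tested genes, 10.9% were called higher and 10.8% lower. The skeletal muscle list was near the floor, with sums between 20 and 161 in the 8 libraries.

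Fibroblast genes stayed high in both cocktails. Of 30 members, 8 were higher and 4 lower, with a median of 0.47. Col1a2, a collagen I chain, was 34127 in all 4 BKM_FNV libraries and 29407, 29407, 34127 and 34127 in K_FNV, and was not called (-0.11 ± 0.38). Fbln2, a basement membrane glycoprotein, was 7159 and 7159, then 1525 and 1471, against 29410 and 23871, then 21719 and 21719 (2.87 ± 0.14, adjusted p = 4.06e-16). Ly6a, the surface marker Sca-1, was 1570 and 1431, then 44 and 49, against 9477 and 8742, then 3470 and 3143 (4.35 ± 0.40, adjusted p = 2.73e-10). Postn, a matrix protein of connective tissue, was lower, at 12545 and 12926, then 23868 and 29407, against 1016 and 3693, then 2436 and 1837 (-3.18 ± 0.70, adjusted p = 0.000329). The list summed to 406909 to 411437, then 373346 to 397255, in BKM_FNV and 404027 to 432803, then 460689 to 511353, in K_FNV. Starting fibroblasts had 502727 to 528682 and neural stem cells 36720 to 37695. BKM_FNV at both days and K_FNV at day 24 were thus below the fibroblast level, and K_FNV at day 30 reached it in its higher library. Contractile genes were higher in 3 of 13 and lower in 0 in the average, with 2 lower at day 24 and 7 higher at day 30. Their median difference was 0.28, and 0.81 without both K_FNV replicate 1 libraries. Acta2, smooth muscle actin, was 937 and 847, then 210 and 302, against 216 and 645, then 2157 and 1821 (2.97 ± 0.37 at day 30, adjusted p = 9.3e-08).

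The Hox genes, which record position along the body axis, were higher in 18 of 37 and lower in 4. At day 24, 19 were higher and 1 lower, and at day 30, 18 and 11. Grouped by paralog number, a split chosen after the values were seen, 0 of 11 genes of groups 1 to 4 were higher and 3 lower, 7 of 11 of groups 5 to 8 were higher and 0 lower, and 11 of 15 of groups 9 to 13 were higher and 1 lower. At day 30, 8 of the 11 genes of groups 1 to 4 were lower. Hoxc6 was 399 and 406, then 64 and 43, in BKM_FNV and 1142 and 937, then 1004 and 840, in K_FNV (2.72 ± 0.32, adjusted p = 2.27e-08). Hoxd13 was 75 and 53, then 24 and 38, against 109 and 356, then 194 and 390 (2.36 ± 0.24, adjusted p = 1.41e-09). Hoxb8 crossed over, at 132 and 142, then 812 and 922, against 372 and 413, then 380 and 310. It was called higher at day 24 (adjusted p = 0.000666) and lower at day 30 (-1.33 ± 0.33, adjusted p = 0.00144), with an interaction of -2.83 ± 0.47 (adjusted p = 4.46e-05). Hoxb3 was 525 and 499, then 2635 and 2833, against 541 and 635, then 609 and 505 (-2.30 ± 0.40 at day 30, adjusted p = 1.66e-05). The calls of Hoxb8 and Hoxb3 were lost with the left-out library kept, with adjusted p values of 0.402 and 0.162 at day 30.

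Signalling genes moved in both directions. Wnt pathway genes were higher in 5 and lower in 10 of 21. Dkk2, a secreted Wnt inhibitor, was 179 and 195, then 227 and 231, in BKM_FNV and 2955 and 3596, then 1055 and 884, in K_FNV (3.09 ± 0.11, adjusted p = 9.42e-19). Sfrp2, a secreted Wnt binder, was 2257 and 2164, then 2600 and 2342, against 52 and 37, then 113 and 50 (-5.29 ± 0.35, adjusted p = 2.97e-13). Wnt7b, a ligand of the developing nervous system, was 567 and 571, then 1165 and 1120, against 8 and 8, then 43 and 35 (-5.32 ± 0.36, adjusted p = 4.41e-13). These 3 genes did not overlap at either day. Notch genes were higher in 1 and lower in 8 of 15. Nrarp, a feedback target of Notch, was 503 and 485, then 961 and 860, against 44 and 77, then 26 and 35 (-3.93 ± 0.20, adjusted p = 1.03e-15). In the BMP list 6 of 17 were higher and 1 lower, among them Grem1, a BMP antagonist, at 706 and 569, then 163 and 186, against 4851 and 2624, then 2971 and 3798 (3.37 ± 0.17, adjusted p = 1.03e-15). STAT3 and LIF pathway genes were higher in 3 and lower in 1 of 9. ERK feedback genes were higher in 2 and lower in 1 of 14, near the share of all genes.

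Of the metabolic lists, glycolysis was lower in 5 of 17 entries and cholesterol synthesis in 3 of 15, with 0 higher in either. Of all tested genes, 10.8% were called lower. Slc2a3, a neuronal glucose transporter, was 7445 and 7445, then 6370 and 6160, in BKM_FNV and 1227 and 556, then 193 and 302, in K_FNV (-3.93 ± 0.21, adjusted p = 3.36e-15). In the cholesterol list K_FNV replicate 1 was above replicate 2 in 15 of 15 genes at day 24 and 14 of 15 at day 30. The median difference was -0.65, and -0.86 without both K_FNV replicate 1 libraries.

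By the rule for the largest averaged changes, the 12 genes named as higher were Pip, Gm10718, Cxcl3, Prl3d3, Ifit1bl2, Tfec, Ms4a4b, Cfhr2, Lipf, Tigd4, Clec2e and Gm12371, and 10 of the 12 are among the genes listed only at 0 or at 50 and above. Pip was listed at 0 in BKM_FNV and at 587, 675, 777 and 538 in K_FNV. Cxcl3, a neutrophil chemokine, was listed at 0 in BKM_FNV and at 413, 281, 214 and 238 in K_FNV. The 12 named as lower included Igdcc3, Neurod4, Sox3, Sox2, Agmo, Zfy1, 3830403N18Rik, Gm5662, Dbx1, Tex16 and Ncan, of which 6 are of that kind. Igdcc3, a surface protein of the immunoglobulin family, was 2005 and 1990, then 2863 and 2423, in BKM_FNV and 7, 0, 0 and 0 in K_FNV. Dbx1, a factor of neural tube progenitors, was 136 and 144, then 1037 and 927, against 0 in all 4 K_FNV libraries. In all these genes the 2 cocktails were separated at both days, as the rule required.

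From day 24 to day 30 the difference between the cocktails changed in 2743 genes, upward in 1446 (6.97%) and downward in 1297 (6.25%). The call had the same direction at both days in 2155 genes, 63.6% of the day 24 calls and 40.8% of the day 30 calls, and opposite directions in 100. In 2145 of the 2743 genes (78.2%) the larger change between the days was in BKM_FNV, against 13942 of all 20760 tested genes (67.2%). By list, the median change from day 24 to day 30 was -2.18 in BKM_FNV and -0.26 in K_FNV for chemokines and cytokines, -4.23 and -1.23 for epithelial genes, -1.22 and -0.11 for interferon genes, and 1.12 and 0 for neural stem cell genes. In other lists the change was larger in K_FNV, with medians of -0.43 in BKM_FNV and -0.82 in K_FNV for endothelial genes, -0.04 and -0.46 for BMP genes, -0.07 and -0.42 for replication genes and 0.08 and -0.48 for glycolysis. Interactions were called upward for 10 of 16 class I presentation genes and 9 of 15 p53 targets, and downward for 13 of 23 mitosis and 12 of 28 neural stem cell genes.

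The genes that moved apart most include a non-coding RNA of neural tissue and a matrix protein. Miat was 2208 and 2022, then 13468 and 12547, in BKM_FNV and 247 and 69, then 7 and 15, in K_FNV. Its difference went from -3.99 ± 0.57 at day 24 to -10.04 ± 0.57 at day 30 (interaction -6.05 ± 0.80, adjusted p = 1.59e-06). Ltbp2, a binder of elastic fibres, was 1513 and 1493, then 15 and 14, against 12150 and 7645, then 5241 and 9217, going from 2.68 ± 0.33 to 8.72 ± 0.33 (interaction 6.04 ± 0.47, adjusted p = 1.24e-10). At day 24 the rule named Spink12, Pip and Clec2e as higher and Pou5f1, Neurod4 and Tdgf1 as lower, and at day 30 Gm4070, Ltbp2 and Ccr1 as higher and Igdcc3, Miat and Ncan as lower. With the left-out library kept, 827 genes were called for the change between days, and the Ccl2 interaction lost its call.

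**Figure D4:**
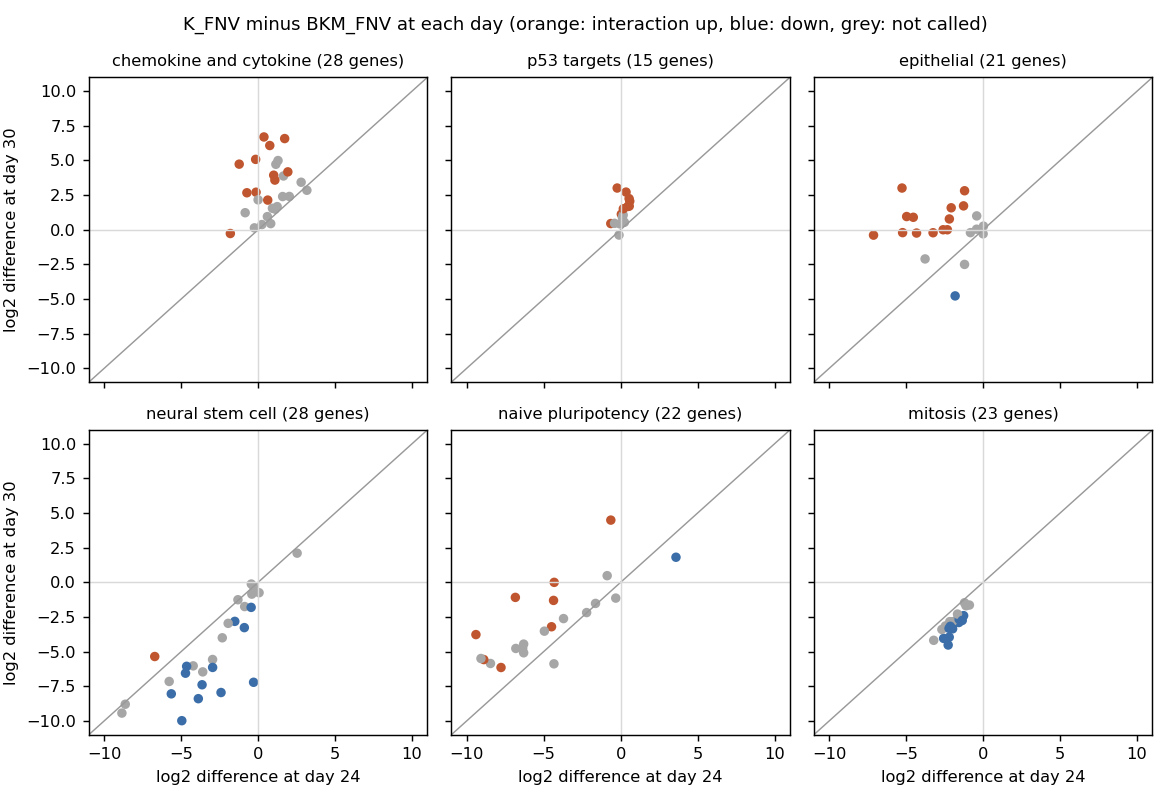
Difference K_FNV minus BKM_FNV at day 30 against that at day 24 (both on the log2 scale) for the members of 6 lists, orange where the change between days was called upward, blue where downward, with a line of equality. Most chemokine and cytokine (26 of 28), p53 target (14 of 15) and epithelial genes (18 of 21) lie above the line, with 12, 9 and 13 called upward and 1 epithelial gene called downward, and 13 of 23 mitosis genes are called downward.

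The same difference was taken in the libraries of days 4, 8, 12 and 18, on doxycycline. Since a difference in source between the periods cannot be told apart from the period, these libraries may not show the later cultures before withdrawal. The difference after withdrawal departed from that on doxycycline in 3810 genes, upward in 1846 (8.89%) and downward in 1964 (9.46%). Among the lists, 30 of 38 interferon, 11 of 16 class I and 7 of 15 p53 target genes were called upward, and 21 of 23 mitosis, 18 of 28 neural stem cell, 13 of 16 neuron and 14 of 21 Wnt pathway genes downward. The median difference of interferon genes had been -0.35 on doxycycline, with 2.29 after. For class I and p53 target genes it had been 0.12 and -0.11, with 2.00 and 0.62 after. For neural stem cell, neuron and Wnt pathway genes it had been -0.24, 0.07 and 1.48, with -4.40, -2.71 and -0.86 after. Mitosis and replication genes were already lower by median, at -0.68 and -0.48, with -2.42 and -1.42 after. Senescence secretory genes and chemokines and cytokines were already higher, at 1.19 and 0.86, with 2.16 and 1.88 after. Isg15 went up by 5.03 ± 0.90 in this contrast (adjusted p = 3.58e-05), having been at 426 and 589 in BKM_FNV at day 8.

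Top2a moved by -2.56 ± 0.17 (adjusted p = 1.7e-12) and Lmnb1 by -2.54 ± 0.26 (adjusted p = 5.2e-09), while Cdkn2a moved by 2.72 ± 0.12 (adjusted p = 1.92e-16). Slc2a3 moved by -3.97 ± 0.26 (adjusted p = 6.58e-13). Sfrp2 reversed its order: at day 18 it was 18 and 11 in BKM_FNV and 376 and 635 in K_FNV, and the contrast was -8.89 ± 0.43 (adjusted p = 1.66e-15). Genes named by the rule included Ccr3, Slc10a2, Cxcl3, Serpinb12 and Atp12a upward and Col2a1, Gm5662, Uts2b, Igdcc3, Sox3 and Ngfr downward. Col2a1, a cartilage collagen, was 4 and 13 in BKM_FNV and 230 and 127 in K_FNV at day 18, and 2820 and 2768, then 1743 and 1567, against 43 and 29, then 2 and 2, after withdrawal. The Xist gap falls between the same periods, and a shift acting on both cocktails alike cancels in this contrast, while a shift acting on them unequally does not. With the left-out library kept the count was 2208.

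**Figure D5:**
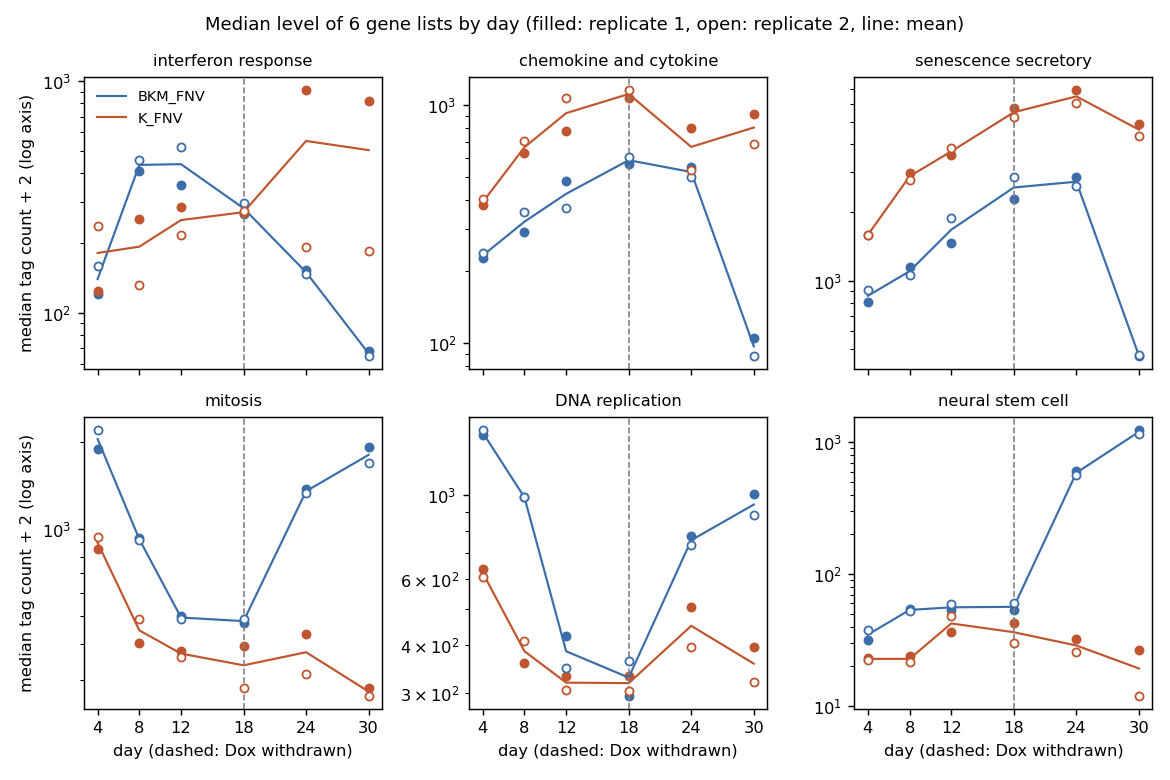
Median value of the members of 6 gene lists in each library of BKM_FNV (blue) and K_FNV (orange) from day 4 to day 30, on a log axis, with the end of doxycycline at day 18 as a dashed line. After withdrawal mitosis and neural stem cell genes stand higher in BKM_FNV and interferon genes higher in K_FNV, where the replicates are far apart. Mitosis genes stand higher in BKM_FNV at each day on doxycycline too.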

How the data were processed

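Poly(A)-selected RNA of bulk cultures was sequenced on an Illumina instrument, per the labels' protocols. The authors deposited the values as whole numbers per gene with an identical distribution in each library, used here as a score (normalized tag counts) and not as reads, so no count model was run and depth is unknown. The submitters' processing notes name Bowtie2 2.0, RSEM and mm10. Of the deposited table of neural stem cell medium samples 54 columns were used, and 1 column that matched no sample label was not. Genes of at least 10 in at least 2 libraries (20760 of 21241) were fitted as log2(value + 2) with limma 3.58.1 in R 4.3.3, 1 mean for each of 28 groups over 53 libraries (25 residual degrees of freedom), eBayes with trend, two-sided, adjusted by Benjamini-Hochberg within each of 5 contrasts. BKM_Sox2 day 24 replicate 1 was left out, because its correlation with its replicate was 0.0578, below the limit of 0.8. Tests are on 2 libraries per group, and contrasts share the fit and its spread.

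The compared libraries, the 38 gene lists (618 genes, 587 tested) and the tests were chosen with earlier results of these data known. Named genes are the delivered factors and the 4 markers, the 12 largest changes each way in the average among called genes with separated libraries and a group mean of at least 100, 3 each way at each day, 6 each way for the change between days and for the change after withdrawal, and members of the lists by size. Xist, the paralog split of Hox genes and list members outside that rule were chosen after their values were seen. Alternatives were another pseudocount (1 and 16), another filter (none, and at least 50), median of ratios and quantile scaling, no trend, all libraries kept, only the compared groups, a replicate block, and each library left out in turn. Leaving out both libraries of a K_FNV replicate number, or the genes listed only at 0 or at 50 and above, was chosen after seeing the data. The fit was tested on simulated data. Promoter sequences came from RefSeq on GRCm38.p6. Some genes that the rule names are not reported here.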

Additional observations from a re-analysis of the deposited data

Results flagged for a closer look

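The differences between the cocktails were not the same at day 24 and day 30, by interaction terms of the limma fit, for 2743 genes, and not the same after as on doxycycline for 3810 genes. Of the genes described above, the day 30 difference (log2 scale) exceeded that of day 24 by 6.32 in Lif, 6.04 in Ltbp2, 5.44 in Krt8, 4.85 in Ccl2, 4.22 in Acta2, 4.09 in Dnmt3b, 3.77 in Mmp3 and 2.37 in Mdm2. The change was -6.05 in Miat, -2.83 in Hoxb8, -2.74 in Sox17 and -2.25 in Top2a. Against the days on doxycycline, the difference after withdrawal changed by 5.03 in Isg15 and 2.72 in Cdkn2a, and by -8.89 in Sfrp2, -3.97 in Slc2a3, -2.56 in Top2a and -2.54 in Lmnb1. In Lif, Ltbp2, Mmp3 and Mdm2 the change of level between the days was larger in BKM_FNV than in K_FNV. The Xist gap between the periods lies across the second set of values, and its part in them was not tested.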

How the results depend on the processing

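The averaged count of 4504 called genes lay between 3176 and 4562 over the alternatives and between 4317 and 4483 when each compared library was left out in turn. Keeping the poorly replicated library moved the counts to 1614 at day 24, 3066 at day 30, 827 for the change between days and 2208 for the change after withdrawal, since it widens the shared error. Leaving out a compared library gave 2970 to 3402 at day 24, 4901 to 5280 at day 30, 2443 to 2705 for the change between days and 3644 to 3774 for the change after withdrawal; where 1 library was left in a group, it was assumed to vary like the other groups. By correlation of replicate deviations the replicate numbers were not taken as pairs, with 0.0918 between the K_FNV days, 0.0289 between cocktails at day 24 and -0.00781 at day 30, although in K_FNV libraries of the same number were closest across days. The replicate block gave 4503, 3403, 5277, 2750 and 3815 calls. Of 102 tested gene values, 91 had the same status, called or not called, with all libraries. The other 11 lost their call (among them Ifnar2, Ifngr2, Mmp13, Ccl2, Nes, Ltbp2, Hoxb8 in 3 contrasts, and Hoxb3). With only the compared groups 95 had the same status, 6 lost their call (among them Isg15 in 2 contrasts, Ifit1, Irf7 and the Krt8 change between days) and 1 gained it. None of these values changed direction under any alternative run. Depth is not known, so no floor or interval from counts can be given.
Among the small lists, leaving out K_FNV day 24 replicate 1 gave 1 neural crest and 5 cholesterol genes lower, leaving out BKM_FNV day 24 replicate 2 gave 1 trophoblast gene lower, and leaving out BKM_FNV day 30 replicate 1 gave 1 macrophage and blood gene higher. A pseudocount of 16 gave 1 trophoblast, 1 skeletal muscle and 3 forebrain and midbrain genes lower.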
